A study of Mus musculus with 12 samples.

Results

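Ferroptosis is a form of cell death in which phospholipids of the membrane are peroxidized in a reaction that needs iron, and 9 genes that supply its substrate, hold it back or move iron were followed here: Acsl4, Gpx4, Slc7a11, Aifm2, Tfrc, Slc40a1, Fth1, Ftl1 and Ncoa4. They were chosen by name, and each was found in the expression table by its NCBI Gene number, so that all 9 of 9 were present among 27179 genes. Of these, 8 reached a TPM (a share of all transcripts, corrected for gene length and scaled to the same total in every library) of at least 1 in at least 3 libraries and were tested with the other genes that did so, 14972 in all. Slc7a11 stayed under 1 TPM in every library and is described from its values.

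The libraries were made from RNA of the whole kidney of mice of 8-12 weeks on a mixed strain background, 3 in each of 4 groups. Wild-type mice and FAN1KO mice (γGT1-Cre;Fan1-/-, in which Cre under Ggt1 control removes Fan1, a nuclease of DNA crosslink repair, from the proximal tubule and not from other kidney cells) had received either 5 weekly intraperitoneal injections of cisplatin at 2 mg/kg or saline. The labels number the kidneys without saying that each came from a different mouse, so the p-values measure the spread between these libraries. The sources used here do not give the sex of the single mice.

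Reads assigned to genes, recovered from the steps in the TPM, ranged from 37196407 to 82935883 per library. Fan1, the targeted gene, ranged from 1.98 to 3.80 TPM with saline and 2.33 to 3.57 with cisplatin in wild-type kidneys, and from 1.17 to 2.28 and 1.55 to 3.51 in FAN1KO kidneys. These ranges overlapped, and a whole-kidney TPM over the full gene does not isolate the deleted part or the tubule. Markers of the proximal tubule were present in every library (summed TPM of 7 genes, 2271 to 7958). In 4 libraries, 1 in each group (library 3 of wild-type saline and of FAN1KO cisplatin, library 1 of FAN1KO saline and of wild-type cisplatin), 4 Y-linked genes had a mean log2(TPM + 1) of 3.46 to 3.93, against 0.0061 to 0.104 in the other 8, and these 4 libraries stood apart for many genes. Wild-type cisplatin library 2 also stood apart: Hmox1, which breaks down haem, was at 3214 TPM there and at 23.9 to 386 in the other 11 libraries.

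Membrane phospholipids that carry polyunsaturated fatty acids are the fuel of ferroptosis, and ACSL4 activates such fatty acids for their insertion into phospholipids. GPX4 reduces the lipid peroxides with glutathione, whose cysteine enters the cell as cystine through SLC7A11, while AIFM2 (also known as FSP1) keeps coenzyme Q reduced and traps lipid radicals without glutathione. Iron is taken up with transferrin through TFRC, stored in ferritin cages of FTH1 and FTL1 chains, released again when NCOA4 carries ferritin to the lysosome, and exported by ferroportin, the product of Slc40a1.

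Much of the control of the iron genes lies in their mRNAs. Iron regulatory proteins bind a hairpin, the iron-responsive element, when iron is scarce: in a 5′ UTR the bound hairpin blocks translation, and in the 3′ UTR of Tfrc it protects the mRNA from decay. Ferritin protein can thus change while its mRNA does not. The hairpin was searched for in the sense strand of GENCODE M21 mRNAs (mm10), as a CAGUGN loop closed by a stem of 5 pairs, G with U allowed, with a C just 5′ of the stem. Of the 9 genes, 4 held it: Fth1, Ftl1 and Slc40a1 once each in the 5′ UTR, and Tfrc 4 times in the 3′ UTR. Among all genes, 19 of 20840 (0.0912%) had a match within the first 250 bases of a 5′ UTR. In 3986 genes with a 3′ UTR of at least 2458 bases, the length in Tfrc, only the first 2458 bases were searched. Of these genes, 42 had a match there (1.05%), Tfrc being the only one with 4. The sites are shown since they set apart the members whose RNA is held or translated according to iron; capitals mark the loop of 6 bases.
Fth1, 5′ UTR, chr19:9982732-9982761, plus strand: uuccugcuucaaCAGUGCuugaacggaacc
Ftl1, 5′ UTR, chr7:45459778-45459807, minus strand: gucuugcuucaaCAGUGUuugaacggaaca
Slc40a1, 5′ UTR, chr1:45925464-45925493, minus strand: caacuucagcuaCAGUGUuagcuaaguuug
Tfrc, 3′ UTR, chr16:32631219-32631248, plus strand: aauuaucggaagCAGUGCcuuccauaauua
Tfrc, 3′ UTR, chr16:32631598-32631627, plus strand: cauuaucgggagCAGUGUcuuccauaaugc
Tfrc, 3′ UTR, chr16:32631663-32631692, plus strand: cuauaucggagaCAGUGAucuccauauguu
Tfrc, 3′ UTR, chr16:32631710-32631739, plus strand: aauuaucgggaaCAGUGUuucccauaauuu

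The members differed widely in level. By mean TPM over the 12 libraries, Fth1 ranked 13 of 27179 genes (6863 TPM) and Ftl1 ranked 71 (1290 TPM), followed by Gpx4 (143 TPM), Slc40a1 (40.3), Acsl4 (23.5), Tfrc (18.6), Aifm2 (15.1), Ncoa4 (14.1) and Slc7a11 (0.165). Acsl4, Tfrc, Aifm2 and Ncoa4 shared a range of about the same levels, with neighbours in that order overlapping between libraries. The steadiest gene was Fth1, with a highest value 1.54 times its lowest, and apart from Slc7a11 the most variable was Acsl4, at 5.04 times.

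**Figure D1:**
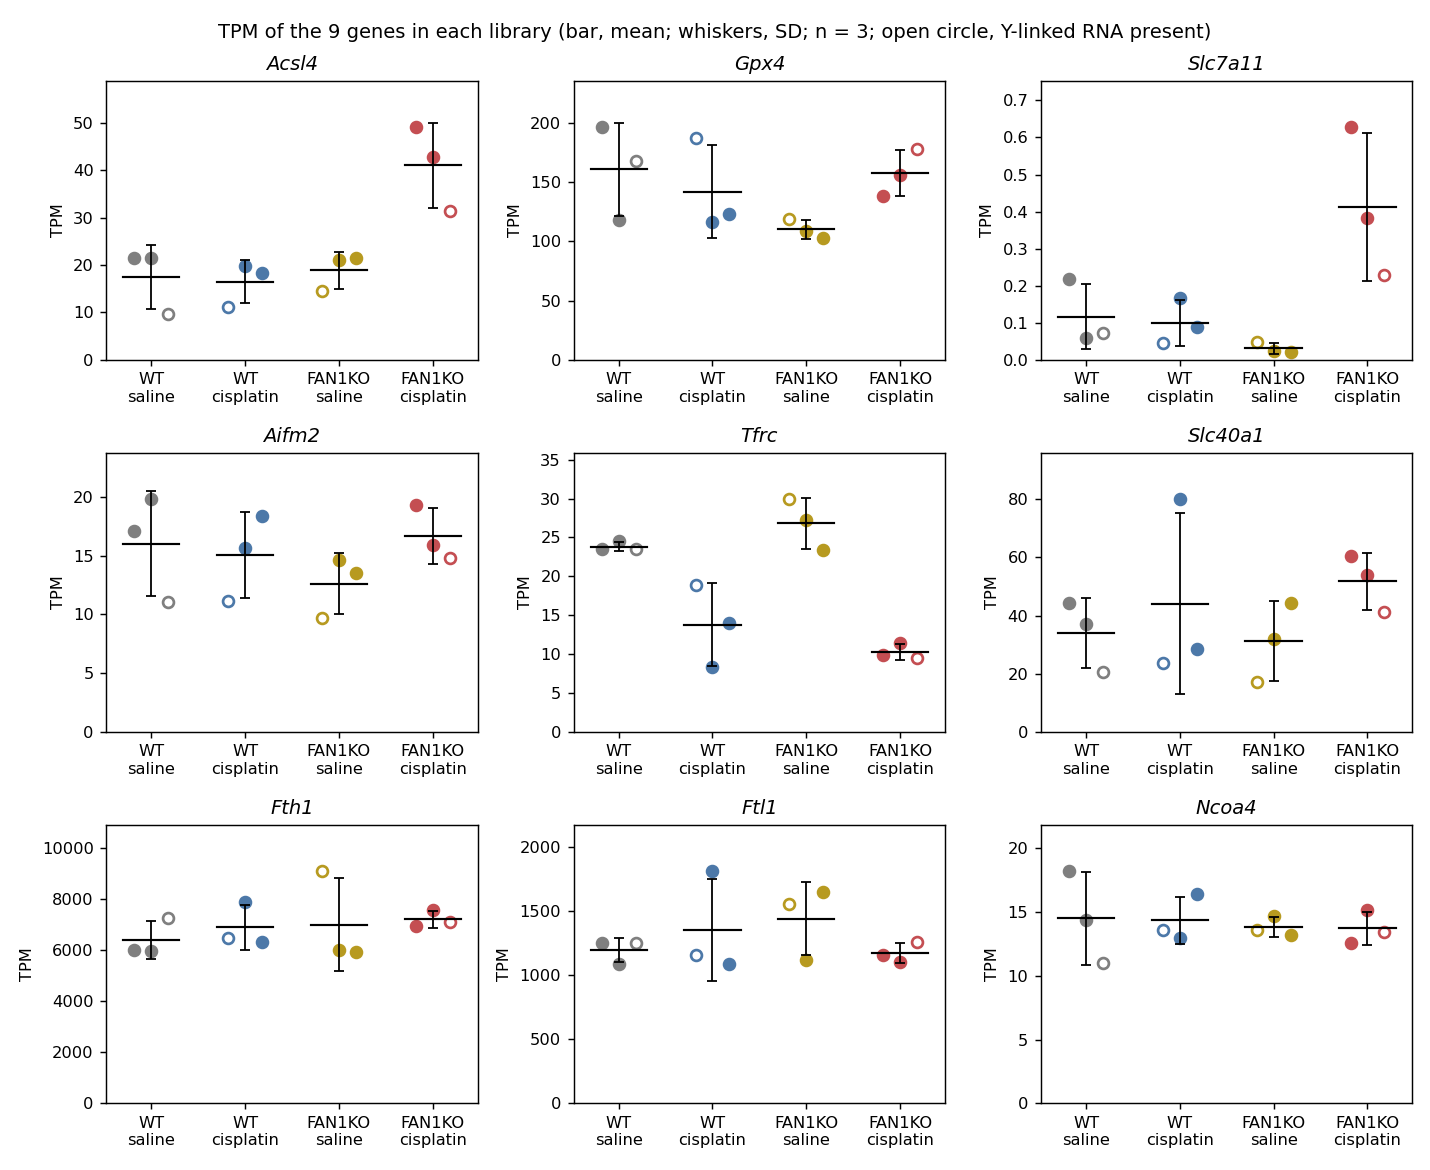
TPM of the 9 genes (vertical axes from 0, one scale per gene) in the 12 libraries by group; points are libraries, bars the mean, whiskers the SD of 3 libraries, and open circles the libraries with Y-linked RNA. Acsl4 in the 3 FAN1KO cisplatin kidneys (31.4 to 49.0 TPM) lies above every other library, and Tfrc in both cisplatin groups (8.30 to 18.9) lies below every saline kidney (23.3 to 29.9).

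Acsl4, at chrX:142317993-142390802 (GRCm38), had its highest values in FAN1KO kidneys under cisplatin. Libraries 1 to 3 held 21.4, 21.5 and 9.74 TPM in wild-type saline, 14.4, 21.0 and 21.4 in FAN1KO saline, 11.2, 19.8 and 18.4 in wild-type cisplatin and 49.0, 42.8 and 31.4 in FAN1KO cisplatin kidneys. The lowest FAN1KO cisplatin kidney lay above the highest of the 9 others, and the other 3 groups overlapped. Mean TPM under cisplatin was 41.1 ± 8.93 in FAN1KO and 16.5 ± 4.57 in wild-type kidneys (SD, n = 3), a ratio of 2.49. The log2 fold change was 1.28 (SE 0.32, limma adjusted p = 0.0164), and the exact two-sided permutation p was 0.1, the smallest that 3 against 3 libraries allow.

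Within FAN1KO kidneys, cisplatin against saline gave an Acsl4 log2 fold change of 1.07 (SE 0.32, limma adjusted p = 0.0212). The same comparison in wild-type kidneys gave -0.05 (SE 0.32, 95% interval -0.74 to 0.65), and FAN1KO against wild-type under saline gave 0.16 (95% interval -0.54 to 0.86). The difference between these treatment effects, the genotype by treatment interaction, was 1.12 (SE 0.45) with an unadjusted limma p of 0.0298 and an adjusted p of 0.15, so that it was not called. Both Acsl4 calls held in all 10 alternative fits that kept every library of the groups compared, with limma adjusted p up to 0.0279 and 0.0450. Median-ratio scaling, which sets the typical gene to the same level in every library, gave the smaller values of 0.99 against wild-type and 0.62 against saline. Each call depended on single libraries. Against wild-type it was lost without wild-type cisplatin 1 (log2 fold change 1.05, limma adjusted p = 0.0638), FAN1KO cisplatin 1 (1.15, adjusted p = 0.0744) or FAN1KO cisplatin 2 (1.24, adjusted p = 0.0561). Against saline it was lost without FAN1KO saline 1 (0.90, limma adjusted p = 0.0808), FAN1KO cisplatin 1 (0.94, adjusted p = 0.0864) or FAN1KO cisplatin 2 (1.03, adjusted p = 0.0633).

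In every group the library with Y-linked RNA had the lowest Acsl4 value. Among libraries without Y-linked RNA the mean was 45.9 TPM in FAN1KO and 19.1 in wild-type cisplatin kidneys (2.41 times, 2 libraries each), and among those with it 31.4 against 11.2 TPM (2.79 times, 1 library each). With the Y-linked level as a covariate, the Acsl4 interaction was 1.12 and was called (limma adjusted p = 0.00213, and up to 0.226 over 9 alternatives), where 27.3% of all genes were called higher. Without wild-type saline 3 it was 1.48 and was also called (limma adjusted p = 0.0491).

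The kidneys in which Acsl4 was high also differed in cell markers. Summed TPM of 8 macrophage markers was 142 to 422 in FAN1KO cisplatin and 50.5 to 149 in wild-type cisplatin kidneys, where 1 of 7 tested markers was called higher, and that of 7 proximal tubule markers was 2271 to 3964 against 4738 to 6673, where 5 of 7 were called lower. The 3 tubule injury markers (Havcr1, Lcn2 and Krt20) summed to 711 to 1071 TPM against 24.7 to 110 and all 3 were called higher. Their part in the Acsl4 difference was not tested, and in whole kidneys a change in the number of cells of a type and a change in RNA per cell cannot be told apart.

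Gpx4, at chr10:80047166-80056439, was not called in any comparison. Single libraries held 196, 118 and 168 TPM in wild-type saline, 119, 109 and 103 in FAN1KO saline, 187, 116 and 123 in wild-type cisplatin and 139, 157 and 178 in FAN1KO cisplatin kidneys. The FAN1KO saline values were the lowest group, at 110 ± 7.91 TPM, and did not overlap with FAN1KO cisplatin (158 ± 19.7). The lowest wild-type kidneys, at 118 and 116 TPM, overlapped with the top of the FAN1KO saline values. FAN1KO cisplatin against saline gave a log2 fold change of 0.51 (SE 0.21, limma adjusted p = 0.0771). This adjusted p was 0.0201 when those 6 libraries were fitted alone and 0.0263 with the Y-linked covariate, and reached 0.931 over the 10 alternatives; after median-ratio scaling the change was 0.04. Against wild-type under cisplatin Gpx4 differed by 0.18 (95% interval -0.29 to 0.64). Gpx4 has 2 annotated pseudogenes, to which the counting could have split reads.

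Slc7a11, at chr3:50364936-50499087, was close to the detection limit in these kidneys. The recovered reads behind its values were 64, 13 and 34 in wild-type saline, 13, 5 and 5 in FAN1KO saline, 14, 34 and 17 in wild-type cisplatin and 121, 79 and 47 in FAN1KO cisplatin kidneys, or 0.217, 0.0596 and 0.0736 TPM, 0.0482, 0.0227 and 0.0217 TPM, 0.0449, 0.167 and 0.0882 TPM, and 0.627, 0.381 and 0.230 TPM. FAN1KO cisplatin kidneys were the highest group and did not overlap with any other. They had 4.13 times the mean TPM of wild-type cisplatin and 13.4 times that of FAN1KO saline kidneys, with an exact two-sided permutation p of 0.1 for each. In a fit of the recovered reads by limma voom, Slc7a11 was called higher in FAN1KO against wild-type under cisplatin (log2 fold change 2.13, SE 0.60, adjusted p = 0.0291) and in cisplatin against saline within FAN1KO (3.56, SE 0.72, adjusted p = 0.00434), where 18.3% and 30.8% of 17477 genes were called higher. Even there its highest value stayed below 1 TPM. Its partner in the cystine transporter, Slc3a2, was at 91.9 to 267 TPM and was not called between the genotypes under cisplatin (0.48, SE 0.33, limma adjusted p = 0.313).

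Aifm2, at chr10:61715263-61739260, had 17.1, 19.8 and 11.1 TPM in wild-type saline, 9.70, 14.6 and 13.5 in FAN1KO saline, 11.2, 15.6 and 18.4 in wild-type cisplatin and 19.3, 15.9 and 14.8 in FAN1KO cisplatin kidneys. FAN1KO kidneys under cisplatin lay just above those under saline, 14.8 against 14.6 TPM at the nearest, and the other groups overlapped. No comparison was called; cisplatin against saline in FAN1KO gave 0.38 (SE 0.24, limma adjusted p = 0.222), and FAN1KO against wild-type under cisplatin 0.16 (95% interval -0.38 to 0.69). Aifm2 overlaps Macroh2a2 in the annotation, and whether reads were counted by strand is not given in the sources used here.

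On the iron side, Tfrc (chr16:32608896-32632794), the transferrin receptor that carries the 4 hairpins shown above, was lower after cisplatin. It stood at 23.5, 24.5 and 23.5 TPM in wild-type saline and 29.9, 27.2 and 23.3 in FAN1KO saline kidneys, against 18.9, 8.30 and 14.0 in wild-type cisplatin and 9.81, 11.4 and 9.42 in FAN1KO cisplatin kidneys. Every cisplatin kidney lay below every saline kidney, while the genotypes overlapped under both treatments. In FAN1KO kidneys Tfrc fell from 26.8 ± 3.30 to 10.2 ± 1.04 TPM, a log2 fold change of -1.31 (SE 0.23, limma adjusted p = 0.0018), and this call held in all 12 fits that left out 1 library and in all 10 alternatives. In wild-type kidneys the means were 23.8 ± 0.594 and 13.7 ± 5.32 TPM, and the log2 fold change of -0.82 (SE 0.23) had an unadjusted limma p of 0.00438 but an adjusted p of 0.899, which missed the threshold; without wild-type cisplatin 2 the change was -0.52. The interaction was -0.49 (SE 0.32, limma adjusted p = 0.373), so the fall was not shown to differ between genotypes.

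The wild-type cisplatin kidneys spread more widely in Tfrc than any other group, from 18.9 TPM in library 1 to 8.30 in library 2. FAN1KO against wild-type under cisplatin was -0.33 (SE 0.23, limma adjusted p = 0.31) with all libraries. It was -0.63 and was called without wild-type cisplatin 2 (limma adjusted p = 0.0249, against 0.0527 to 0.424 over the 10 alternatives). Among libraries without Y-linked RNA, cisplatin took mean Tfrc from 25.3 to 10.6 TPM in FAN1KO and from 24.0 to 11.2 in wild-type kidneys, and among those with it from 29.9 to 9.42 and from 23.5 to 18.9. TFRC is abundant on red cell precursors. The 5 erythroid genes (with Hba-a2 and Alas2 among them) summed to 1136 to 5340 TPM with saline and 2318 to 6571 with cisplatin in wild-type kidneys, and to 535 to 1467 and 6.56 to 73.4 TPM in FAN1KO kidneys. Their part in the Tfrc difference was not tested.

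Neither ferritin mRNA was called in any comparison. Fth1 (chr19:9980600-9985111), the heavy chain that oxidizes iron for storage, had 5977, 5946 and 7234 TPM in wild-type saline, 9079, 5990 and 5906 in FAN1KO saline, 6449, 7886 and 6312 in wild-type cisplatin and 6923, 7558 and 7097 in FAN1KO cisplatin kidneys. The groups overlapped in all 4 comparisons, and the log2 fold changes lay between 0.07 and 0.11 with SE 0.21. For FAN1KO against wild-type under cisplatin the 95% interval was -0.39 to 0.53. The sign of the Fth1 value depended on the scaling, since median-ratio scaling, which also moved the median of all genes from 0.24 to -0.02, gave -0.24 for this comparison and -0.40 for cisplatin against saline in FAN1KO, neither called.

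Ftl1 (chr7:45457944-45459886), the light chain, had 1249, 1088 and 1252 TPM in wild-type saline, 1553, 1117 and 1652 in FAN1KO saline, 1158, 1812 and 1088 in wild-type cisplatin and 1155, 1102 and 1257 in FAN1KO cisplatin kidneys. All groups overlapped. The value furthest from 0 was cisplatin against saline in FAN1KO at -0.28 (SE 0.21, limma adjusted p = 0.295). Median-ratio scaling moved this value to -0.75 (limma adjusted p = 0.0606), and together with the Y-linked covariate to -0.76, which was called (limma adjusted p = 0.0131), where 26.1% of all genes were called lower. Both ferritin genes have annotated pseudogenes (2 for Fth1 and 3 for Ftl1), so reads could have been split between copies.

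Ncoa4 (chr14:32159879-32179855), which hands ferritin to autophagy, ranged from 10.9 to 18.2 TPM over all 12 libraries, with group means of 14.5 ± 3.62 in wild-type saline, 13.8 ± 0.771 in FAN1KO saline, 14.3 ± 1.83 in wild-type cisplatin and 13.7 ± 1.30 in FAN1KO cisplatin kidneys. All 4 groups overlapped. Its log2 fold change between FAN1KO and wild-type under cisplatin was -0.06 (95% interval -0.43 to 0.32), and between cisplatin and saline in FAN1KO -0.01 (95% interval -0.39 to 0.36). The latter value was -0.45 after median-ratio scaling (limma adjusted p = 0.0622) and -0.45 with the Y-linked covariate added, when Ncoa4 was called lower (limma adjusted p = 0.0291).

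Slc40a1 (chr1:45908070-45926532) encodes ferroportin, the iron exporter that carries a 5′ hairpin. It had 44.3, 37.2 and 20.7 TPM in wild-type saline, 17.0, 31.8 and 44.5 in FAN1KO saline, 23.8, 80.1 and 28.4 in wild-type cisplatin and 60.5, 53.9 and 41.1 in FAN1KO cisplatin kidneys. The FAN1KO cisplatin group had the highest mean (51.8 ± 9.84 TPM) but overlapped with each other group. Cisplatin against saline in FAN1KO gave a log2 fold change of 0.80 (SE 0.47, limma adjusted p = 0.193), with an adjusted p from 0.0392 with the Y-linked covariate to 0.518 over the 10 alternatives. Its SE was the largest of the 8 tested members.

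**Figure D2:**
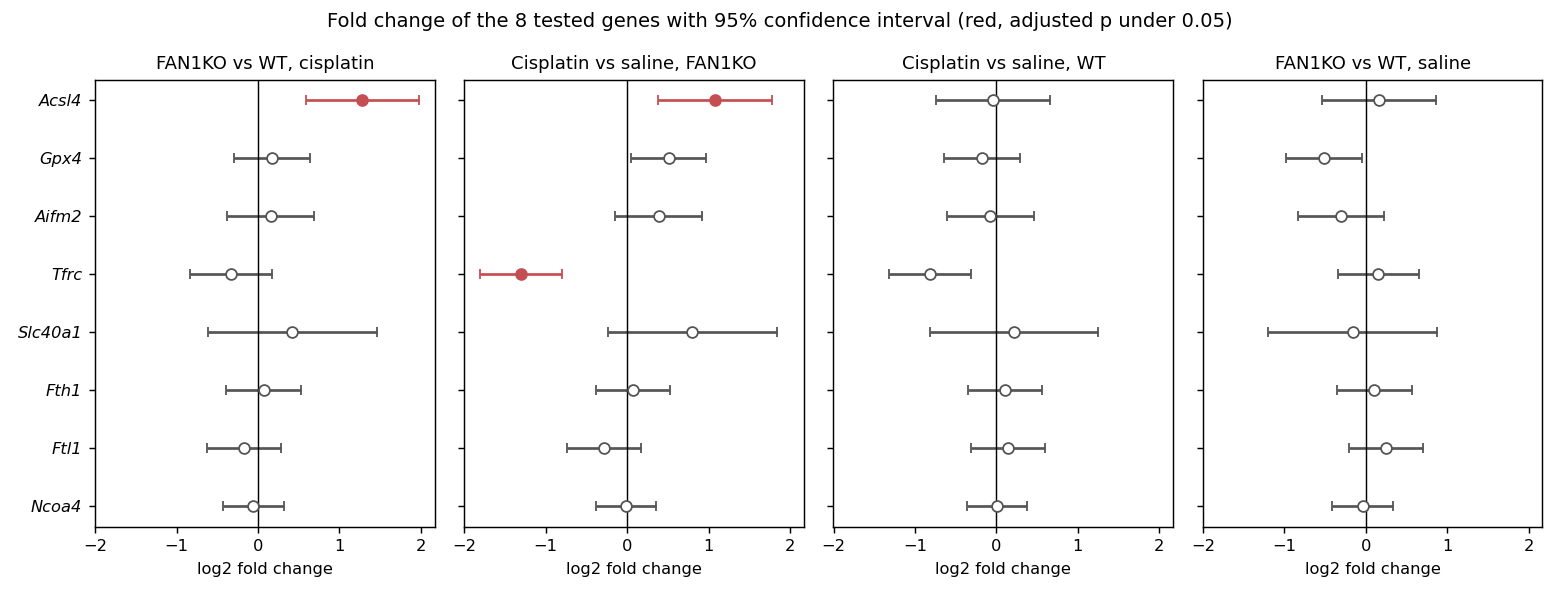
Log2 fold change on the log2(TPM + 1) scale (horizontal axis) of the 8 tested genes in 4 comparisons, with 95% confidence intervals from limma; red marks an adjusted p under 0.05. Red points are Acsl4 at 1.28 and 1.07 and Tfrc at -1.31, and the Tfrc interval in wild-type kidneys lies below 0 without passing the adjustment.

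Few of the members were called. Against wild-type under cisplatin, 1 of 8 tested members was called higher and 0 lower, where 19.6% of all tested genes were called higher and 4.37% lower. The median log2 fold change of the 8 was 0.11, against 0.24 over all genes. Against saline within FAN1KO, 1 of 8 was called higher and 1 lower, where 34.9% and 4.9% of all genes were, and the medians were 0.23 and 0.37. With 1 of 8 called in a direction, nothing particular to these genes can be read from the counts.

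In the remaining comparisons no member was called. For FAN1KO against wild-type under saline the shares over all genes were 0.341% higher and 0.427% lower, and for cisplatin against saline in wild-type kidneys 0.0601% higher and 0% lower, so both comparisons had few calls of any kind. At an unadjusted limma p under 0.05 stood Gpx4 in the first (-0.51, limma adjusted p = 0.519) and Tfrc in the second. For the interaction, where 5.22% of genes were called higher and 1.02% lower, 0 of 8 members were called, with Acsl4 and Gpx4 (0.69, limma adjusted p = 0.18) under an unadjusted p of 0.05.

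Groups that did not overlap were more frequent than calls. Of all 9 members, Acsl4 and Slc7a11 were higher without overlap in FAN1KO than in wild-type cisplatin kidneys and none was lower (35.7% and 8.6% of tested genes). In cisplatin against saline within FAN1KO, Acsl4, Gpx4, Slc7a11 and Aifm2 were higher and Tfrc lower without overlap (47.4% and 7.43%). In wild-type kidneys Tfrc alone was lower and none was higher (1.08% and 5.2%). Under saline Slc7a11 alone was lower in FAN1KO kidneys, at 0.0482 TPM against 0.0596 for the nearest pair, and none was higher (7.83% and 4.62%).

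Ratios within a library do not depend on the scaling between libraries. The log2 ratio of Fth1 to Tfrc was 7.99, 7.92 and 8.27 in wild-type saline, 8.25, 7.78 and 7.98 in FAN1KO saline, 8.41, 9.89 and 8.82 in wild-type cisplatin and 9.46, 9.37 and 9.56 in FAN1KO cisplatin kidneys, so that every cisplatin kidney lay above every saline kidney. The log2 ratio of Acsl4 to Gpx4 was -3.19, -2.46 and -4.11, then -3.04, -2.38 and -2.27, then -4.06, -2.55 and -2.75, and then -1.50, -1.87 and -2.50 in the same order of groups. FAN1KO cisplatin lay above wild-type cisplatin, at -2.50 against -2.55 for the nearest pair, and overlapped with FAN1KO saline. The log2 ratio of Fth1 to Ftl1 ranged from 1.84 to 2.78, with the FAN1KO cisplatin kidneys at 2.58, 2.78 and 2.50.

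**Figure D3:**
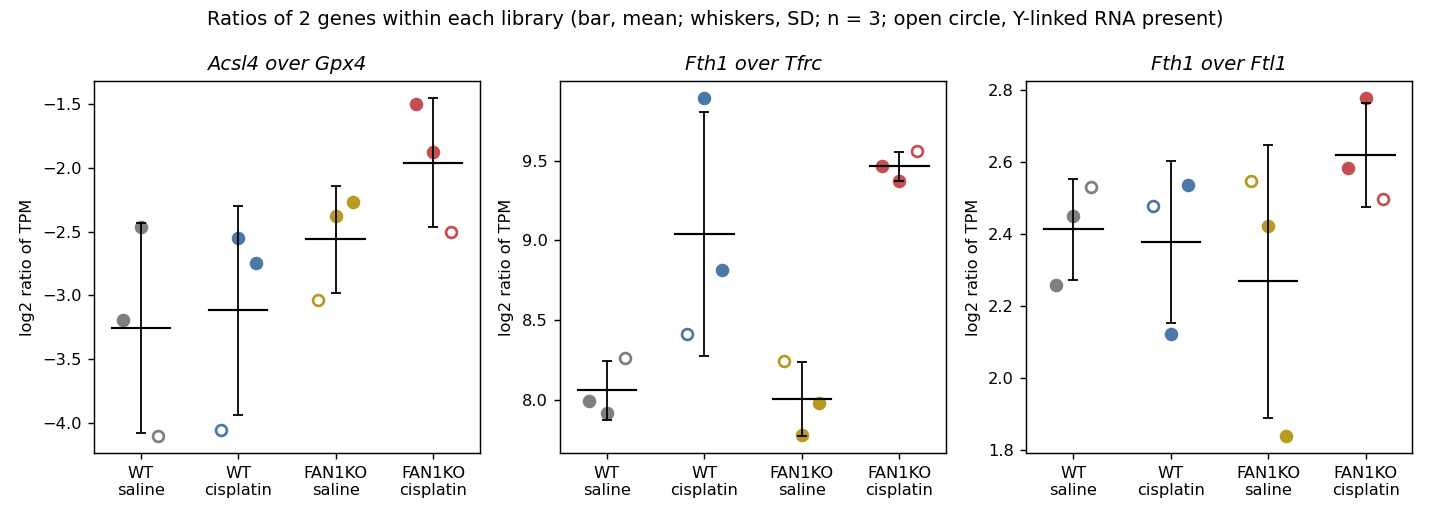
Log2 ratios of TPM (vertical axes) of Acsl4 to Gpx4, Fth1 to Tfrc and Fth1 to Ftl1 within each of the 12 libraries by group, with mean and SD of 3 libraries; open circles are the libraries with Y-linked RNA. The Fth1 to Tfrc ratio is 7.78 to 8.27 in the saline and 8.41 to 9.89 in the cisplatin kidneys.

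Wild-type cisplatin library 2, the kidney with 3214 TPM of Hmox1, was extreme for 3 of the 4 hairpin genes over all 12 libraries. The share of all genes that were highest or lowest in this library was not counted, so nothing particular to the hairpin genes can be read from this. It had the highest Slc40a1 (80.1 TPM) and Ftl1 (1812 TPM) and the lowest Tfrc (8.30 TPM), and the highest Fth1 of its group (7886 TPM). Gclc, which makes the first step of glutathione synthesis, was also highest there, at 307 TPM against 106 to 214 in the other libraries. Of the other genes listed for ferroptosis defence, Txnrd1 (293 TPM), Gsr (257 TPM) and Gclm (348 TPM) were highest there too. The rest of the 17 genes on that list were not, Gss, Slc3a2, Nqo1 and Nfe2l2 among them. Since the share of all genes was not counted, nothing particular to the defence genes can be read from this either. Without this library the wild-type cisplatin against saline change turned in sign for Slc40a1 (from 0.22 to -0.31) and Ftl1 (from 0.14 to -0.09), neither called.

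The 4 libraries with Y-linked RNA differed from their group mates for several members. Acsl4, Aifm2 and Slc40a1 each had their lowest value in that library in all 4 groups. The limma log2 differences were -0.71 for Acsl4 (SE 0.09, adjusted p = 0.000241), -0.49 for Aifm2 (SE 0.09, adjusted p = 0.00142) and -0.87 for Slc40a1 (SE 0.23, adjusted p = 0.00907). These 3 of 8 members were called lower and 0 higher, where 50% of all tested genes were called lower and 6.31% higher. After median-ratio scaling Acsl4 alone of the 3 was still called (-0.39, limma adjusted p = 0.00397), and the scaled differences of Gpx4 (0.64), Fth1 (0.52) and Tfrc (0.52) were called higher; of all genes 20.2% were called lower and 26.1% higher in that fit. The endothelial markers Pecam1, Kdr, Cdh5 and Emcn summed to 18.2 to 35.0 TPM in these 4 libraries and to 37.4 to 153 in the other 8. Within each group that library also had the lowest macrophage sum and the highest proximal tubule sum. In FAN1KO saline, for example, these were 37.5 and 7958 TPM. Distal nephron and erythroid sums were lowest in that library in every group but FAN1KO cisplatin. The part of these markers in the differences was not tested. With the Y-linked covariate, cisplatin against saline in FAN1KO called 4 members higher (Acsl4, Gpx4, Aifm2 and Slc40a1) and Tfrc lower, where 52.9% of all genes were called higher.

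Beyond the members, 74 further genes of ferroptosis and iron handling were listed in 5 roles, and 64 of them were tested. Between FAN1KO and wild-type kidneys under cisplatin 10 were called higher and 8 lower, where 19.6% and 4.37% of all genes were, with a median log2 fold change of 0.12 against 0.24 over all genes. This split rested on the scaling, since 6 were higher and 10 lower after median-ratio scaling, when all genes went from 81.8% to 53.0% of calls being higher. Against saline within FAN1KO 16 were higher and 8 lower (34.9% and 4.9% of all genes), or 8 and 14 after that scaling. In wild-type kidneys 0 were called after cisplatin, and under saline 1 was (Slc39a14, lower in FAN1KO).

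Of the 17 genes of ferroptosis defence, 2 were higher in FAN1KO than in wild-type cisplatin kidneys, 1 was lower and 14 were not called (19.6% and 4.37% of all genes were higher and lower). Nqo1, which like AIFM2 reduces quinones, had the largest called change, from 63.8, 115 and 69.6 TPM in wild-type to 161, 137 and 171 in FAN1KO cisplatin kidneys (log2 fold change 0.95, SE 0.25, limma adjusted p = 0.0229). Nfe2l2, the transcription factor NRF2, was the other gene called higher, and Coq2, an enzyme of coenzyme Q synthesis, was called lower. After median-ratio scaling Nqo1 missed the threshold (0.65, limma adjusted p = 0.171). Gclc was not called (0.13, SE 0.35).

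Of 12 tested genes that make or mark peroxidized lipids, 3 were called higher (Alox5, Chac1 and Sat1), 2 lower (Por and Fads2) and 7 not called. Of all tested genes 19.6% were called higher and 4.37% lower. Alox5, a lipoxygenase of white blood cells, went from 0.188, 0.833 and 0.931 to 3.86, 4.43 and 1.10 TPM. It was at most 0.931 TPM in the 9 libraries outside FAN1KO cisplatin and passed the filter on low values through that group alone. Its call and the distance between its groups are therefore no support, although the counts of called genes given for the list include it. Chac1, which degrades glutathione, went from 0.415, 1.88 and 1.28 to 3.57, 3.21 and 3.97 TPM (1.12, SE 0.35, adjusted p = 0.0401; after median-ratio scaling 0.91, adjusted p = 0.0686, both limma). In Chac1 the 2 groups did not overlap.

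Iron uptake held the gene with the largest change of the list. Lcn2, a siderophore-binding protein released by injured tubules, went from 4.37, 42.1 and 20.8 TPM in wild-type to 517, 350 and 265 TPM in FAN1KO cisplatin kidneys (4.41, SE 0.64, limma adjusted p = 0.00152). Lrp2 and Cubn, the endocytic receptors that recover filtered proteins in the proximal tubule, were both lower, Lrp2 from 217, 289 and 211 to 67.6, 78.3 and 122 TPM (-1.44, SE 0.23, limma adjusted p = 0.00271). They are also on the list of proximal tubule markers above, and the other 7 of 10 tested uptake genes were not called. In this comparison 19.6% of all tested genes were called higher and 4.37% lower.

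Among 11 tested genes of iron storage, export and its control, 3 were higher and 1 lower, where 19.6% and 4.37% of all genes were. Cp, the copper oxidase ceruloplasmin that works with ferroportin, went from 9.71, 44.6 and 35.3 to 161, 116 and 113 TPM (2.31, SE 0.65, limma adjusted p = 0.0279). Bmp6 and Hfe, which both take part in the signalling that sets hepcidin in liver, were higher at 106, 84.5 and 96.8 TPM against 40.8, 47.2 and 46.7 (1.07, SE 0.16, limma adjusted p = 0.00179) and at 41.2, 34.9 and 22.4 TPM against 6.65, 20.1 and 14.2 (1.28, SE 0.39, limma adjusted p = 0.0364). Hfe was not called once the mitochondrial genes were left out (limma adjusted p = 0.057). Hepcidin itself, Hamp, was at 0 in 8 of 12 libraries and at most 0.242 TPM. The 1 gene lower was Aco1, which encodes iron regulatory protein 1, at 102, 89.1 and 99.0 TPM in FAN1KO against 161, 119 and 123 in wild-type cisplatin kidneys (-0.46, SE 0.11, limma adjusted p = 0.0177), while Ireb2, for iron regulatory protein 2, differed by 0.06 (SE 0.11). Aco1 and Ireb2 were named after their values were seen, since the proteins bind the hairpins shown above.

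In the haem and mitochondrial group, 1 of 14 tested genes was higher (Slc25a28, the mitochondrial iron importer mitoferrin 2, 0.50, SE 0.15, limma adjusted p = 0.0371) and 2 were lower (Iscu and Nfs1, of iron-sulphur cluster assembly). Over all tested genes 19.6% were called higher and 4.37% lower. Slc25a28 was not called after median-ratio scaling (0.20, limma adjusted p = 0.277). Hmox1 was not called (-0.99, SE 1.40), with 51.5, 3214 and 23.9 TPM in wild-type and 82.3, 77.3 and 81.5 TPM in FAN1KO cisplatin kidneys. Under saline Hmox1 was higher without overlap in FAN1KO kidneys, at 93.5 to 386 TPM against 25.0 to 45.3 in wild-type. It was not called there, and 4.62% of all tested genes were higher without overlap in that comparison.

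**Figure D4:**
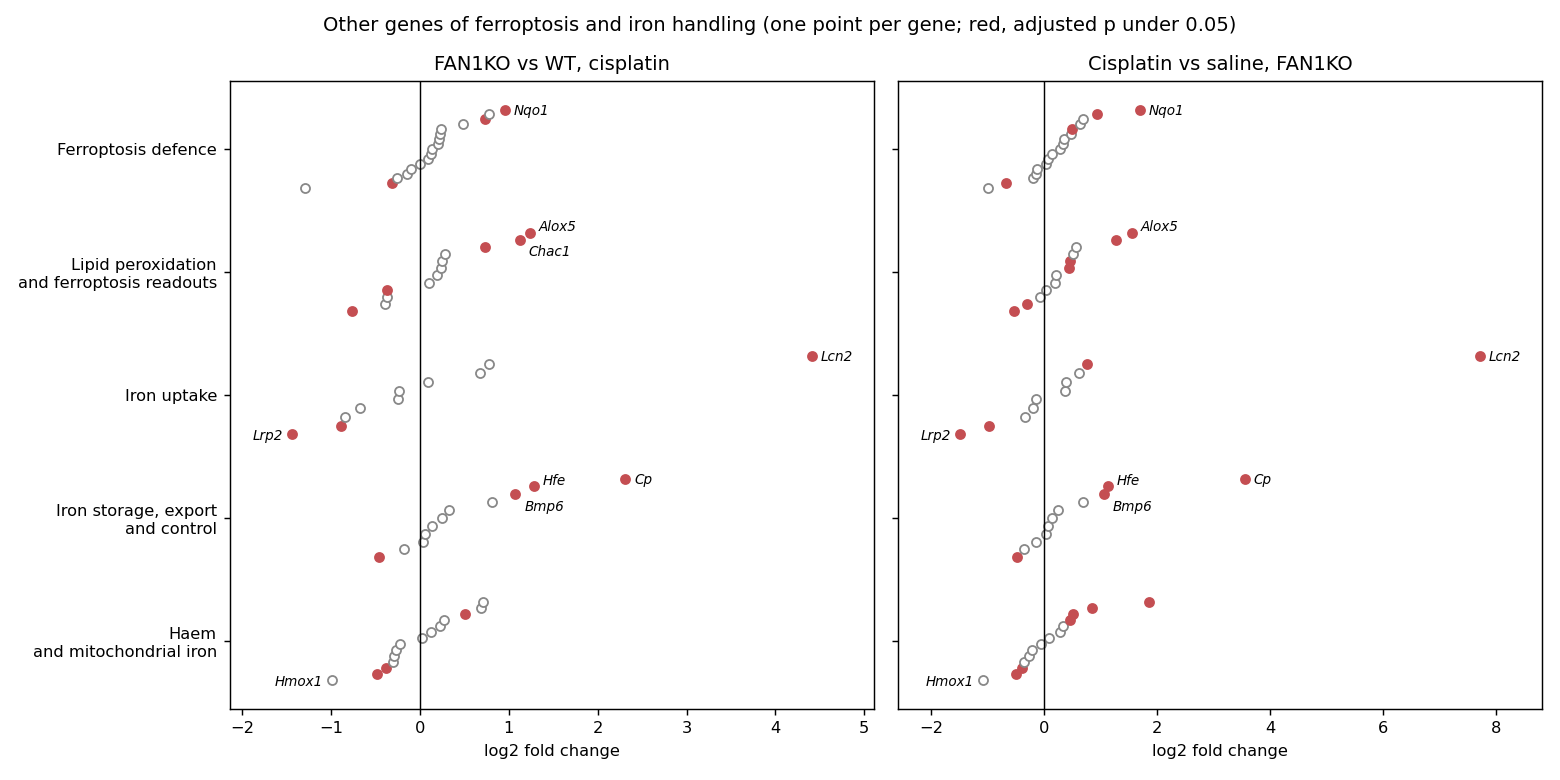
Log2 fold change (horizontal axis) of the 64 tested genes of the wider list, grouped by role, between FAN1KO and wild-type cisplatin kidneys and between cisplatin and saline within FAN1KO; each point is a gene, red marks an adjusted p under 0.05, and names are given for genes described in the text that change by over 0.9. Lcn2, at 4.41 and 7.72, lies furthest to the right in both comparisons.

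The genes with the pattern most like each tested member over the 12 libraries, by Pearson's r of log2(TPM + 1), were as follows, as a description in which group, Y-linked RNA and depth are shared by all genes of a library. Acsl4 was most like Ctsb (r = 0.987) and Steap1 (0.984), Tfrc most like Mindy2 (0.930) and Aspa (0.898), Aifm2 most like Bbs12 (0.956) and Tiprl (0.949), and Slc40a1 most like Abraxas2 (0.934) and Fam114a1 (0.932). Fth1 was most like Igf2bp1 (0.835) and Slc12a2 (0.825), and Ftl1 most like n-R5s103 (0.942) and Hmox1 (0.771). For Ncoa4 the named gene was Gde1 (0.856), and the others nearest to Ncoa4 and Gpx4 had no symbol in the tables used.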

How the data were processed

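The authors deposited a table of TPM per NCBI Gene number for 12 kidney libraries; all columns were used (columns left out, 0). The submitters' notes name mm10 and limma; the aligner, annotation and counting program are not given in the sources used here. Symbols came from RefSeq GRCm38.p6, which matched all but 1904 identifiers, and mRNAs from GENCODE M21. The members and lists were chosen with earlier results of these data known. limma 3.58.1 (R 4.3.3) fitted 4 group means with a mean-variance trend to log2(TPM + 1) of genes that reached 1 TPM in 3 or more libraries, and p-values were adjusted over all genes (Benjamini-Hochberg, threshold 0.05). Fold changes on this scale understate those of low genes. Whole reads were recovered for all 232991 values above 0, to within 0.05 reads plus an allowance for the rounding of the TPM. For each gene the smallest whole numbers that fitted were taken, so a common factor could be missed. In voom on these reads, genes with at least 10 reads in 3 libraries were used. From the wider list were named the genes called in FAN1KO against wild-type under cisplatin with a log2 change of at least 1 and no overlap, the largest per role, and Hmox1, Lcn2, Slc3a2, Gclc and Hamp. Alternatives were another pseudocount (0.1), no filter, median-ratio scaling, mitochondrial genes left out, a replicate block, only the groups compared, no trend, a Y-linked covariate and each library left out; voom and scaling with the covariate were added after seeing the data. Exact permutation tests were two-sided. Scripts were tested on simulated data.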

Additional observations from a re-analysis of the deposited data

Results flagged for a closer look

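The genotype by treatment interaction of Acsl4 was called when the level of Y-linked RNA was a covariate: its log2 value was 1.12 (limma adjusted p = 0.00213), the treatment effect being larger in FAN1KO than in wild-type kidneys. In that fit 27.3% of all genes were called higher for the interaction, and fits with single libraries left out were not run with the covariate. Acsl4 was higher in all 3 FAN1KO cisplatin libraries than in the other 9. Without the covariate the interaction had the same size and was not called (1.12, limma adjusted p = 0.15), and a cause of the difference was not tested.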

How the results depend on the processing

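The Acsl4 and Tfrc calls in FAN1KO cisplatin kidneys kept their direction and their side of the threshold in all 10 alternatives, while Acsl4 lost its calls without single libraries. Between FAN1KO and wild-type under cisplatin, the 1 member called became 2 without a filter and 2 with voom on recovered reads, and 0 to 2 with 1 library left out. Between cisplatin and saline in FAN1KO, the 2 members called became 5 with the Y-linked covariate, 4 with median-ratio scaling and that covariate together (Acsl4 higher, Tfrc, Ftl1 and Ncoa4 lower), and 1 to 3 with 1 library left out. In this comparison Slc7a11 was also called higher without a filter (limma adjusted p = 0.00649) and with voom on recovered reads (limma adjusted p = 0.00434). Gpx4 was called higher with only the groups compared (limma adjusted p = 0.0201). For the interaction, 0 became 1 with the covariate, 1 with scaling and covariate, and 0 to 1 with 1 library left out. Of the wider list, between FAN1KO and wild-type under cisplatin, 18 became 10 with only the groups compared, 30 with the covariate, 29 with scaling and covariate, and 6 to 18 with 1 library left out (7 without wild-type cisplatin 1, 6 without FAN1KO cisplatin 1, 9 without FAN1KO cisplatin 2). Between genotypes under saline, 1 became 0 without a filter, with median-ratio scaling, with the replicate block or with only the groups compared, 4 with the covariate, 4 with scaling and covariate, and 0 to 1 with 1 library left out. Between cisplatin and saline, 24 in FAN1KO became 37 with scaling and covariate and 18 to 25 with 1 library left out, and 0 in wild-type became 1 without wild-type cisplatin 1, against 0 without any other. For the interaction, 6 became 2 with median-ratio scaling, 3 without mitochondrial genes, 1 with the replicate block, 16 with the covariate, 15 with scaling and covariate, and 1 to 8 with 1 library left out. Calls over all genes also changed with the fit. With the covariate the share of all genes called higher went from 5.22% to 27.3% for the interaction. Between cisplatin and saline in FAN1KO it went from 34.9% to 52.9%. Such shares are not given beside the other counts here, so nothing particular to the members or the list can be read from these changes. The cause was not tested.

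Changes of sign were limited to values that were not called in the main fit. Some of these values were called in an alternative. Between cisplatin and saline in FAN1KO, Aifm2 was called higher with the Y-linked covariate and Ncoa4 lower with scaling and covariate. Under median-ratio scaling, between genotypes with cisplatin, Gpx4 went to -0.13, Aifm2 to -0.13 and Fth1 to -0.24, and with the covariate added to -0.15, -0.13 and -0.25. Between cisplatin and saline in FAN1KO, Aifm2 went to -0.051 and Fth1 to -0.40, and with the covariate added to -0.046 and -0.41. Ncoa4 went to 0.017 between genotypes under saline and to -0.090 between treatments in wild-type, and with the covariate added to 0.013 and -0.094, when Fth1 in wild-type went to -0.011. Without mitochondrial genes Fth1 went to -0.030 between genotypes under cisplatin and to -0.066 between treatments in FAN1KO, and Ncoa4 to -0.025 in wild-type; with voom Ncoa4 went to -0.010 there. With 1 library left out, signs turned within these ranges. Between genotypes under cisplatin Aifm2 ranged from -0.032 to 0.30, Ftl1 from -0.31 to 0.059 and Ncoa4 from -0.13 to 0.038. Under saline Acsl4 ranged from -0.19 to 0.34, Slc40a1 from -0.47 to 0.21, Fth1 from -0.096 to 0.21 and Ncoa4 from -0.21 to 0.13. Between treatments in FAN1KO Fth1 ranged from -0.037 to 0.27 and Ncoa4 from -0.083 to 0.042. In wild-type Acsl4 ranged from -0.40 to 0.19, Aifm2 from -0.30 to 0.11, Slc40a1 from -0.31 to 0.54, Ftl1 from -0.088 to 0.28 and Ncoa4 from -0.17 to 0.17. For the interaction Fth1 ranged from -0.14 to 0.17 and Ncoa4 from -0.19 to 0.15.

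The replicate numbers do not pair the libraries: deviations from the group means correlated at a mean r of 0.018 for same-numbered pairs (n = 18, -0.61 to 0.76) and 0.015 for others (n = 36). With the replicate block Acsl4 between genotypes under cisplatin had a limma adjusted p of 0.0246 and Tfrc in FAN1KO one of 0.00435, and no call of a member changed. Depth limits Slc7a11, which rests on 5 to 121 reads.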
